A study of Mus musculus with 6 samples.

Results

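The immunity-related GTPases (IRG proteins) of the mouse were followed in the kidney through 10 genes, Irgm1, Irgm2, Igtp, Iigp1, Tgtp1, Tgtp2, Gm4841, Gm4951, Gm12250 and Ifi47. Members were taken by gene name among the non-control probes of the array, and every probe of each gene was kept. Of the 10 genes, 9 had a probe under their own name, with 16 of the 56605 probes and 9 of the 36382 gene names on the array. The genes were picked because they rose between the groups compared here, Gm4841 among the largest rises, so their difference between the groups is given as a description and carries no test. Whole kidneys came from 6 female mice at 6 months of age, 3 of the MRL/MpJ strain (MRL, the control) and 3 of MRL/MpJ-Fas lpr/lpr (LPR, the diseased strain), with 1 mouse on each single-colour array. The groups share the MRL/MpJ background and differ by the lpr allele of Fas, a spontaneous mutation in the death receptor gene that is present in every cell of the mouse from birth. The labels name no treatment, and the data hold 1 age and 1 tissue.

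IRG proteins are large GTPases that cells make in response to interferon gamma. The effector GTPases, among them those of Iigp1, Tgtp1, Tgtp2, Gm12250 and Ifi47, gather on the membrane of the vacuole around an intracellular parasite or bacterium and break it. The regulators of the IRGM group, the products of Irgm1, Irgm2 and Igtp, sit on the membranes of the cell itself and hold the effectors inactive there. Interferon gamma acts on its target genes through GAS elements and through the interferon-stimulated response element (ISRE), which interferon regulatory factors bind.

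The stretches of DNA just before the transcription starts are shown because they hold letters that match the motifs named above. RefSeq promoter windows of 300 bases, 250 before and 50 after the start (GRCm38.p6), were found for 7 of the 10 members, all on chromosome 11. Each line below is the strand of the gene, 5′ to 3′, over the 100 bases before the start, with capitals for the ISRE core (GAAA, any 2 bases, GAAA) and the GAS element (TTCNNNGAA), searched on both strands.
Irgm1, chr11:48871421-48871520, minus strand: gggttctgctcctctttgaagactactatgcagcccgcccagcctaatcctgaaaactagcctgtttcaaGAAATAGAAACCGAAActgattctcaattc
Irgm2, chr11:58214877-58214976, plus strand: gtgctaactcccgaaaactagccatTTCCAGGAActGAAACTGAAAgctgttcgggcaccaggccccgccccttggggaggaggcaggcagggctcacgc
Igtp, chr11:58199456-58199555, plus strand: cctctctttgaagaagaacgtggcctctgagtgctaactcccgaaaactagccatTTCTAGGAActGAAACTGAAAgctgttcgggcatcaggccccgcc
Tgtp1, chr11:48992247-48992346, minus strand: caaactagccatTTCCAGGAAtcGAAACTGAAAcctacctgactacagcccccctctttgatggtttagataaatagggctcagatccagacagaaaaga
Tgtp2, chr11:49064213-49064312, minus strand: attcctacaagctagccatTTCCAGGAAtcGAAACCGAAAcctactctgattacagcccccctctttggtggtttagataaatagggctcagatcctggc
Gm12250, chr11:58183743-58183842, plus strand: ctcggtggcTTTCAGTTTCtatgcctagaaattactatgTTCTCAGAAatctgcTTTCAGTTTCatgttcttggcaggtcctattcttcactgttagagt

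An ISRE core stood in 6 of the 7 windows, against 3.44% of all 32851 promoter windows of the same length. A GAS element stood in 5 of the 7, against 8.30% of all windows. In Irgm2, Igtp, Tgtp1 and Tgtp2 the GAS element came first and the ISRE core followed after a gap of 2 bases. That arrangement was noticed in these windows and then counted, and it stood in 5 of the 32851 windows, those 4 and the window of Gm12185, another IRG gene. These genes are close copies of each other, so their windows are not independent. Irgm1 held a pair of overlapping ISRE cores, between positions -30 and -15 from the start, and no GAS element. Gm12250 carried its ISRE cores on the opposite strand, at -91 and -46, with a GAS element between them at -61. Ifi47 held neither motif in its window, which says only that these letters are not there. Among the other lists, an ISRE core stood in 5 of 6 windows of guanylate-binding protein genes, in 5 of 14 of type I interferon response genes, in 2 of 18 of interferon gamma targets, in 2 of 17 of pathway genes and in 0 of 11 of autophagy conjugation genes. A GAS element stood in 2, 4, 4, 5 and 2 windows of the same lists. A match is a description of the letters, not a measured site.

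**Figure D1:**
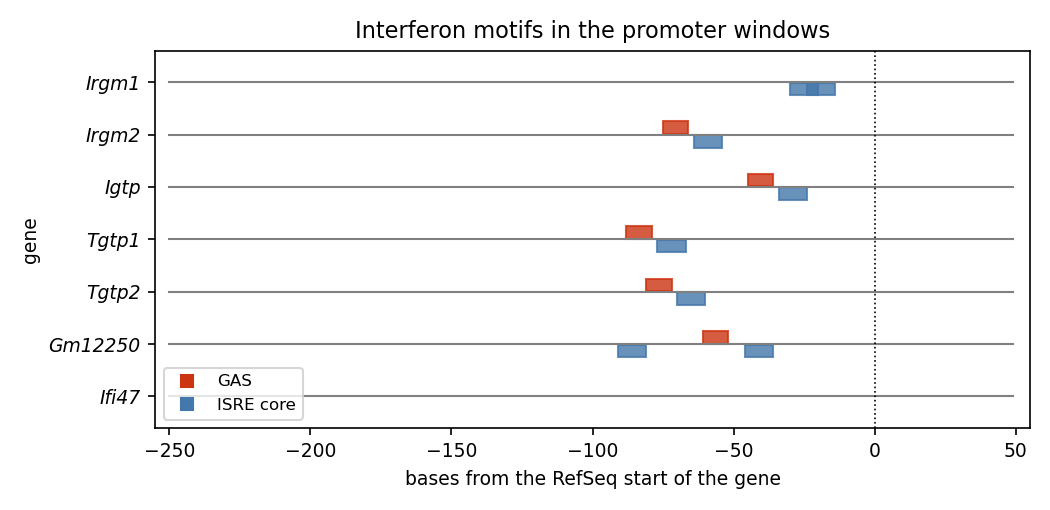
Positions of the GAS element and the ISRE core (coloured blocks) in the promoter windows of 7 IRG genes, in bases from the RefSeq start (dotted line). In Irgm2, Igtp, Tgtp1 and Tgtp2 the GAS element lies just before the ISRE core, and Ifi47 holds neither.

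Values are log2 intensities relative to the 75th percentile of each array, so 0 is the signal that 75% of spots stay under, and a difference of 1 is a change by a factor of 2. The level of a probe depends on its own sequence, so levels of different probes are not compared as amounts of RNA. They were compared only to pick the brightest probe of a gene, and they were added in the summed levels. Between 69.6% and 73.5% of spots were well above background on each array, no spot was saturated, and the 75th percentile lay between 706 and 942 intensity units. Across the array, the linear model of limma called 6.53% of the 39924 tested probes higher in LPR and 6.17% lower, at an adjusted p under 0.05, and the median difference of all tested probes was -0.14. Fas itself was measured by 2 probes. The brighter Fas probe read -0.37, -0.28 and -0.06 in MRL and -0.49, -1.25 and -0.37 in LPR, a difference of -0.47 ± 0.24 (limma SE, n = 3 in each group, adjusted p = 0.234). The dimmer Fas probe was above background in LPR only and at least 1.47-fold higher there (limma, adjusted p = 0.0338), so neither was called lower in LPR. Where they lie relative to the lpr insertion was not annotated here, and they do not check the labels.

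All 16 member probes were above background on the 3 LPR arrays, and 14 were so on all 6 arrays. In 14 of the 16 every LPR value lay above every MRL value, a separation that 11% of all tested probes showed (26.9% had every LPR value below), and the same 14 were called higher by limma, against 6.53% of all probes. None was called lower. Since the genes were chosen by this contrast, nothing is read from these counts. Taking the brightest probe of each gene, 8 of 9 were called higher and 0 lower, against 7.15% and 5.44% of 25641 genes, and their median difference was 3.32 on the log2 scale, which is 10.02-fold. Whole kidney holds many cell types, and more cells of a type cannot be told apart from more RNA per cell.

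**Figure D2:**
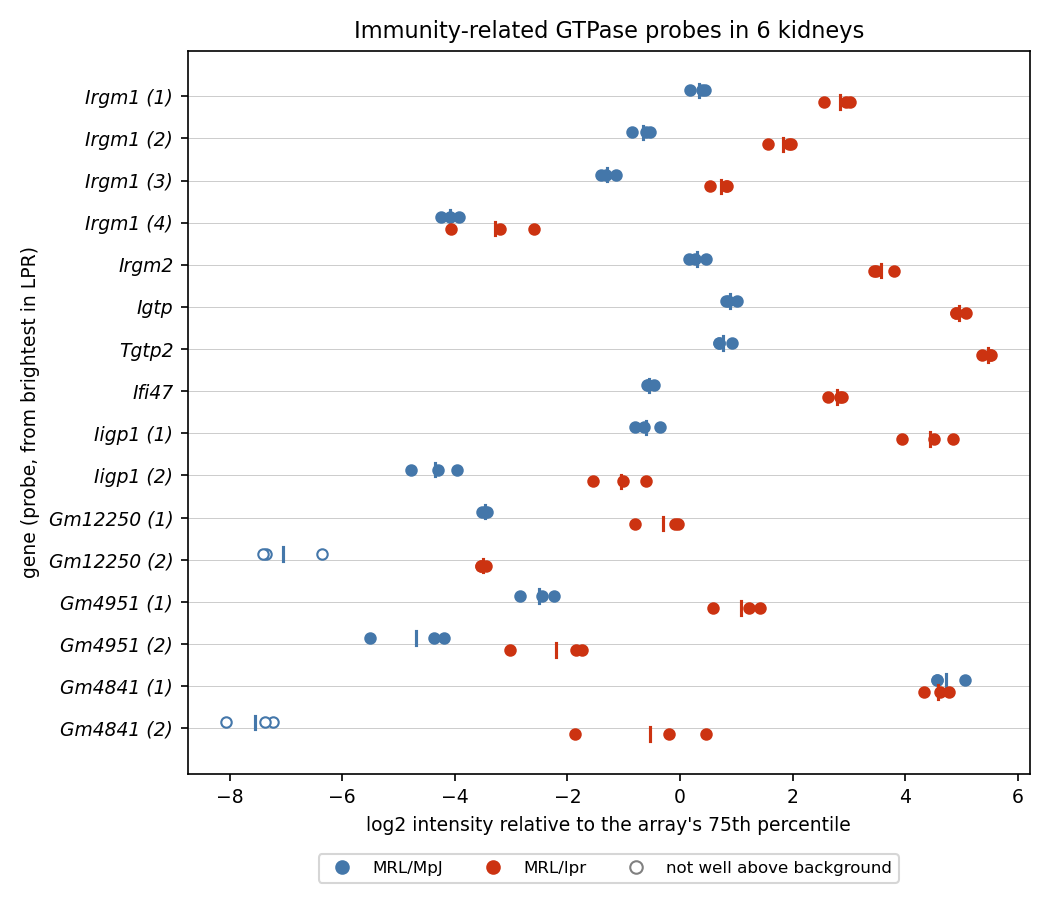
Log2 intensity relative to the array's 75th percentile for the 16 probes of 9 IRG genes, with 1 point per mouse, a bar at each group mean and open points for values not well above background. LPR points lie to the right of all MRL points in every row but the fourth Irgm1 probe and the brighter Gm4841 probe.

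Among the regulators, Igtp rose most. Igtp read 0.82, 0.84 and 1.02 in MRL and 4.91, 5.07 and 4.89 in LPR. The lowest LPR mouse stood 3.88 above the highest MRL mouse, and the difference was 4.06 ± 0.11 (limma SE, n = 3 in each group), which is 16.7-fold. Irgm2 read 0.27, 0.15 and 0.47 in MRL and 3.80, 3.45 and 3.47 in LPR. Its groups were 2.98 apart at their nearest, with a difference of 3.27 ± 0.14, or 9.68-fold. Irgm1, the regulator whose product is also known for a part in autophagy, moved least of the 3. Its brightest probe read 0.45, 0.17 and 0.39 in MRL and 2.94, 2.56 and 3.01 in LPR, a difference of 2.50 ± 0.16 or 5.65-fold.

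Irgm1 is covered by 4 probes on the minus strand of chromosome 11 (mm9). The 3 probes named for its RefSeq transcript lie together, between 48679069 and 48679691, and their differences were 2.50, 2.48 and 2.02. The fourth probe, named only for an Ensembl transcript, lies at 48675495 to 48675554. There the values were -4.24, -3.92 and -4.09 in MRL and -3.19, -4.07 and -2.60 in LPR, so LPR mouse 2 fell within the MRL values and the groups overlapped. Whether these probes lie in coding exons or in untranslated ends was not annotated here.

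The effector GTPases held the widest differences among the probes measured in every mouse. Iigp1, whose product is a well-studied effector at the parasite vacuole, read -0.64, -0.80 and -0.36 in MRL and 4.85, 3.94 and 4.50 in LPR. Its difference was 5.03 ± 0.24, or 32.7-fold, and the nearest mice of the groups were 4.30 apart. A second Iigp1 probe, named for a cDNA clone, lay farther upstream and gave 3.29 ± 0.29, and with normexp background correction 2.12. For Tgtp2, an effector whose gene name stands for T cell-specific GTPase, the MRL mice read 0.70, 0.69 and 0.92. The LPR mice read 5.53, 5.36 and 5.51. This was a difference of 4.70 ± 0.12, or 26.0-fold, with an SD of only 0.09 among the LPR mice. The accessions listed for this probe name Tgtp1 as well as Tgtp2, and no probe carries the name Tgtp1, so the value belongs to the pair.

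Ifi47, also known as Irgd, read -0.60, -0.58 and -0.46 in MRL and 2.84, 2.63 and 2.87 in LPR. The groups were 3.09 apart at their nearest, and the difference was 3.32 ± 0.11, or 10.02-fold. Gm12250, also known as Irgb10, an effector that acts on bacteria, read -3.43, -3.52 and -3.46 in MRL and -0.04, -0.79 and -0.09 in LPR. This gave 3.16 ± 0.21, or 8.96-fold, and with normexp background correction 5.47-fold. Its second probe was above background in no MRL mouse and read -3.53, -3.44 and -3.53 in LPR, at least 5.47-fold above the lowest signal that counted as well above background on the MRL arrays. With normexp background correction, which lifts dim signals by an offset of 50, that probe differed by 1.80-fold.

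Gm4951 and Gm4841 are less studied IRG genes that lie beside Iigp1 on chromosome 18. The brighter Gm4951 probe read -2.45, -2.84 and -2.23 in MRL and 1.42, 0.58 and 1.22 in LPR, a difference of 3.58 ± 0.25 or 11.99-fold. Its dimmer probe gave 2.48 ± 0.45, with an SD of 0.71 in each group, the widest MRL spread among the member probes, and 1.26 with normexp background correction.

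The 2 probes of Gm4841 disagreed. The dimmer probe, at 60427983 to 60428042 of chromosome 18 (mm9), was above background in none of the MRL mice, where it read -7.22, -8.06 and -7.36. In LPR the same probe read 0.45, -1.87 and -0.20. The LPR mean was at least 42.6-fold above the MRL detection floor, while normexp background correction gave a difference of 8.56-fold. LPR mouse 2 lay 2.32 below LPR mouse 1, the widest LPR range of any member probe. The brighter probe, at 60429122 to 60429170, read 5.05, 4.56 and 4.56 in MRL and 4.61, 4.34 and 4.77 in LPR, a difference of -0.15 ± 0.18 with overlapping groups. This second probe holds a dinucleotide repeat of 30 bases. Of the 93 tested probes with such a repeat of 20 bases or more, limma called 0 higher and 0 lower, at a median difference of -0.30. At an unadjusted p under 0.05, 0 were higher and 38 lower, against 9.83% and 20.5% of all tested probes. The methods' t-test with Benjamini-Hochberg adjustment called 0, against 4.35% of all probes higher and 3.47% lower. With Gm4841 at the lower bound of its dimmer probe, a choice made after seeing the data, the median over the 9 genes moved from 3.32 to 3.58.

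**Figure D3:**
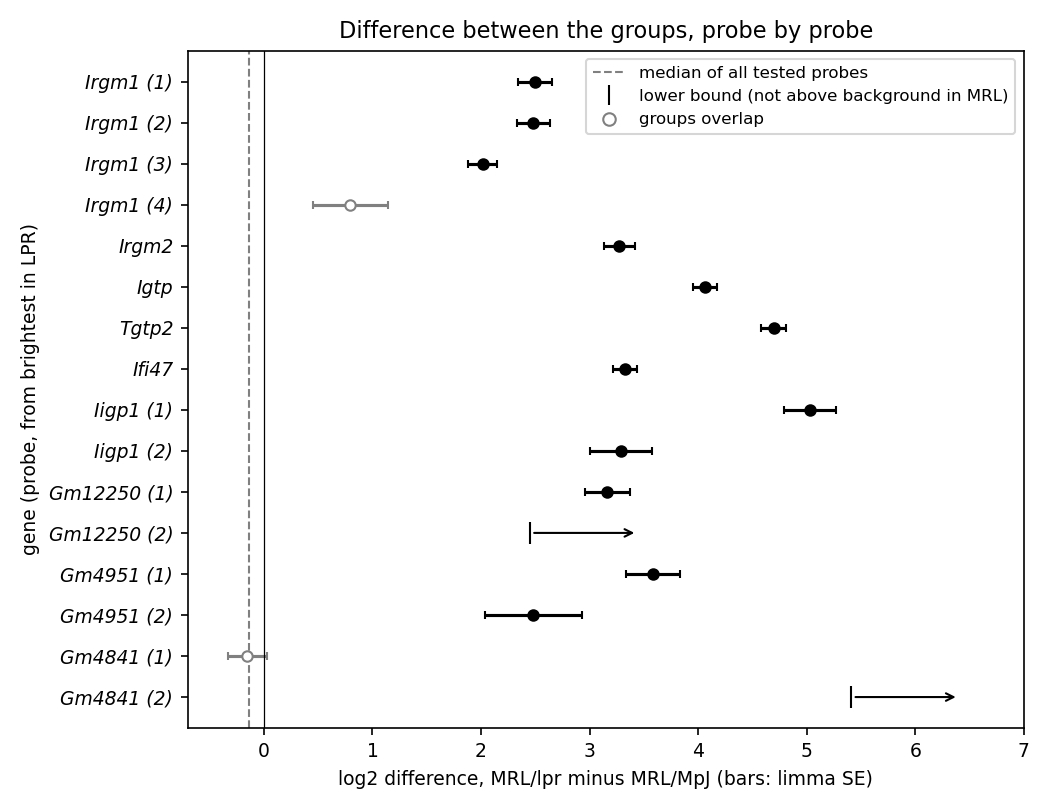
Difference between LPR and MRL for each of the 16 probes on the log2 scale, with limma standard errors, open circles where the groups overlap and arrows from the lower bound where no MRL mouse was above background. Iigp1 at 5.03 and Tgtp2 at 4.70 lead the probes measured in every mouse, and the brighter Gm4841 probe lies at -0.15, beside the median of all tested probes at -0.14.

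By the size of their difference the genes ran, from the top, Iigp1, Tgtp2, Igtp, Gm4951, Ifi47, Irgm2, Gm12250 and Irgm1, with Gm4841 outside this order because its probes disagree. Gm4951, Ifi47, Irgm2 and Gm12250, between 3.58 and 3.16, differed among themselves, neighbour to neighbour, by less than the sum of their standard errors. Igtp and Irgm1 stood apart from the genes next to them by more than that sum. Tgtp2 and Iigp1 differed by 0.33, within the sum of theirs. The order depends on the probe taken: averaging over all probes of each gene, Iigp1 gave 4.16, under Tgtp2, and Gm4951 gave 3.03, under Ifi47, Irgm2 and Gm12250.

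The LPR mice were not equally high. LPR mouse 2 was the lowest of the 3 for 8 of the 9 genes, and Igtp was the exception, where it was the highest. The 9 include Gm4841 by its repeat probe, and for Irgm2 mouse 2 lay just under mouse 3, at 3.45 against 3.47. Among the 1834 genes called higher across the array, mouse 2 was the lowest in 39.0%. The mean deviation of the 9 genes from the LPR mean was -0.25 in mouse 2, 0.16 in mouse 1 and 0.09 in mouse 3. Iigp1, Gm12250 and Gm4951 set mouse 2 farthest from the mean, at -0.49 each, while Tgtp2 varied by 0.17 over the 3 mice. In MRL, mouse 2 was the lowest for 6 of the 9 genes. The summed level of the guanylate-binding proteins was also lowest in LPR mouse 2, at 8.53 against 13.6 and 13.2 in mice 1 and 3, on the linear scale relative to the 75th percentile. The summed level of 8 T cell marker genes was highest in that mouse, at 17.0 against 14.6 and 16.5. So were the sums of B cell genes (4.91 against 3.76 and 4.77) and plasma cell genes (148 against 78.0 and 134). The macrophage sum was nearly level with that of mouse 1, at 81.9 against 81.6 in mouse 1 and 77.4 in mouse 3. The sum of the natural killer cell genes was lowest there, at 0.733 against 0.848 and 0.937, and it includes Klrb1c, above background in no MRL mouse. What sets these differences between mice was not tested.

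**Figure D4:**
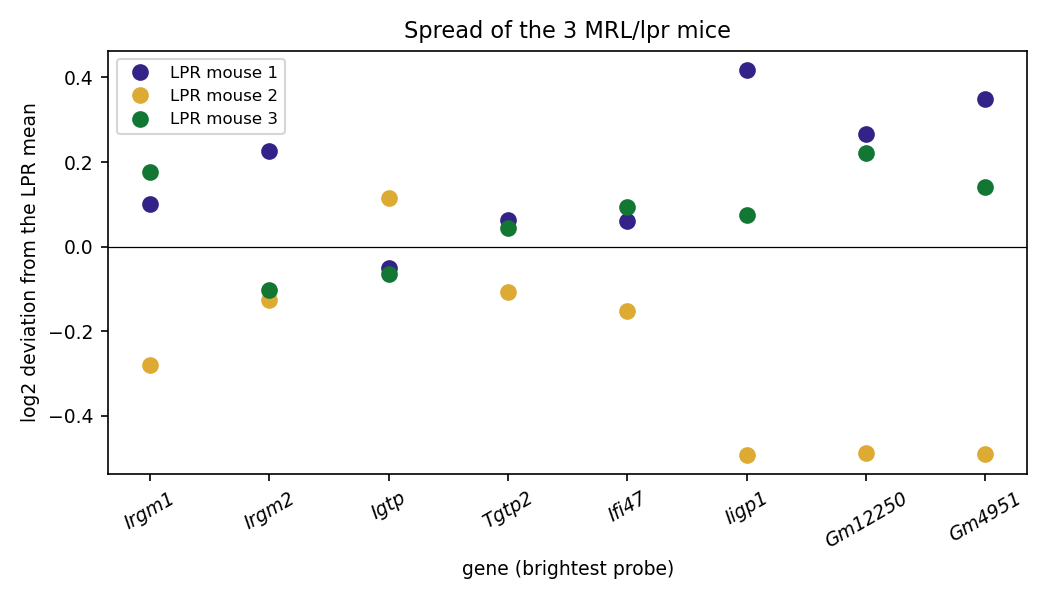
Deviation of each LPR mouse from the LPR mean on the log2 scale, for the brightest probe of 8 IRG genes (Gm4841, whose brightest probe holds the repeat, is left out). LPR mouse 2 lies at or below the other mice for every gene except Igtp.

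On the slide, LPR mouse 1 shared a row of arrays with the 3 MRL mice, and LPR mice 2 and 3 lay in the other row. Within the shared row, LPR mouse 1 stood above the MRL mean by 2.60 (Irgm1) to 5.45 (Iigp1) in 8 genes, and for the repeat probe of Gm4841 the difference was -0.11. The LPR mice of the other row stood above it by 2.45 (Irgm1) to 4.82 (Iigp1) in the same genes.

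The members lie in 3 clusters. Irgm1, Tgtp2 and Ifi47 have their probes between 48675495 and 48910461 of chromosome 11 (mm9). Of the 6 other tested probes inside that stretch, 2 were called higher in LPR, and these belong to Psme2b, named for a proteasome activator subunit, at 0.93 and 0.99. The other 4 belong to the IRG genes 9930111J21Rik1, 9930111J21Rik2 and Gm5431 and did not pass. Gm12250, Igtp and Irgm2 lie between 58001797 and 58036123 of the same chromosome, with no other probe between them. Gm4951, Gm4841 and Iigp1 lie between 60405865 and 60552212 of chromosome 18, where the 1 other tested probe, of the IRG gene F830016B08Rik, gave 0.30 ± 0.28 (limma, adjusted p = 0.493).

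Of the 6 other IRG and related GTPase genes with a tested probe, Gvin1, an interferon-inducible very large GTPase, was higher by 1.89 ± 0.20 (limma, adjusted p = 0.00142), and 5 did not pass. Irgq and Gm5431 gave -0.09 and -0.14, and 9930111J21Rik1, F830016B08Rik and 9930111J21Rik2 gave 0.27, 0.30 and 0.77. Gm12185, whose promoter holds the same motif arrangement as the 4 members, was above background in no MRL mouse and in 2 LPR mice. Testing needed 3 arrays above background, so it was not tested.

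Several genes of the interferon gamma pathway were higher in LPR. The list holds the ligand, receptor and signalling genes. It also holds feedback inhibitors and coactivators of histocompatibility genes, so not all of it lies upstream of the family. Of 18 pathway genes tested, limma called 12 higher and 0 lower, against 7.15% and 5.44% of all genes. Their median was 1.15 against -0.12 over all genes. Ifng itself, the ligand, stayed below background in all 3 MRL mice, and the LPR mean was at least 16.4-fold above the mean detection floor of those arrays (limma, adjusted p = 0.000277). Of the receptor chains, Ifngr2 was higher by 0.62 ± 0.10 (limma, adjusted p = 0.00883), while Ifngr1 gave 0.47 ± 0.13 (adjusted p = 0.0569). The receptor-bound kinases Jak1 and Jak2 gave -0.08 and 0.19 and did not pass. Stat3 was higher by 0.45 by its brightest probe, and its dimmer probes gave 0.57 and 0.04, of which the last did not pass.

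Interferon regulatory factors and coactivators were mostly higher. Irf1, which acts on ISRE elements, was higher by 2.44 ± 0.13, Irf8 by 1.57 and Irf9 by 1.21, while Irf2 gave 0.32 (limma, adjusted p = 0.137). Nlrc5 and Ciita, which switch on class I and class II histocompatibility genes, were higher by 4.01 ± 0.15 and 3.46 ± 0.16. Their dimmer tested probes gave less, 2.00 for Nlrc5 and 3.24 and 2.67 for Ciita. The inhibitors were split. Socs1 and Socs3, feedback inhibitors of the pathway, were higher by 2.76 ± 0.16 and 2.19 ± 0.20, and the phosphatase Ptpn6 by 1.09 ± 0.12. Dimmer Ptpn6 probes gave 1.43, 1.12 and 0.07, and the last did not pass. Another phosphatase, Ptpn2, and the inhibitor Pias1 gave -0.02 and -0.10 and did not pass. Ptpn6 is also a gene of blood cells, and the part of immune cells in the rise of any pathway gene was not tested.

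Genes known to answer to interferon gamma were mostly higher. Of 25 target genes tested, limma called 22 higher and 0 lower, against 7.15% and 5.44% of all genes, with a median of 2.33. The chemokine Cxcl9 led with 5.96 ± 0.25, or 62.1-fold, followed by Acod1, which makes itaconate in macrophages, at 4.57 and the Fc receptor Fcgr1 at 4.23. Cxcl11, Wars and Upp1 did not pass. Of the 11 guanylate-binding protein genes, GTPases that act with the IRG proteins on the vacuole, limma called 10 higher and 0 lower, against the same shares. Gbp6 was higher by 4.54 ± 0.23, Gbp11 by 3.97 ± 0.28 and Gbp9 by 3.95 ± 0.39. Gbp5 did not pass by its brighter probe, at -0.05, and its dimmer probe was higher by 2.13.

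The genes of autophagy conjugation, among whose products are those that load effector IRG proteins onto the vacuole, did not pass in either direction. Of 15 tested, limma called 0, beside shares over all genes of 7.15% higher and 5.44% lower. At an unadjusted p under 0.05, 0 were higher and 3 lower, against 10.6% and 18.9% of all genes, and the methods' t-test with Benjamini-Hochberg adjustment called 0, against 4.91% and 3.11%. Their median was -0.09, and the extremes were Ulk1 at -0.41 (limma, adjusted p = 0.0601) and Atg3 at 0.09. The list also holds genes of other steps of autophagy than conjugation, Ulk1 among them. Type I interferon response genes were called higher in 12 of 17, with a median of 0.90, led by Mx1 at 3.21, Oas1a at 1.68 and Oas2 at 1.60. Rsad2, Ifit2, Ifi44, Ifnar1 and Ifnar2 did not pass.

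**Figure D5:**
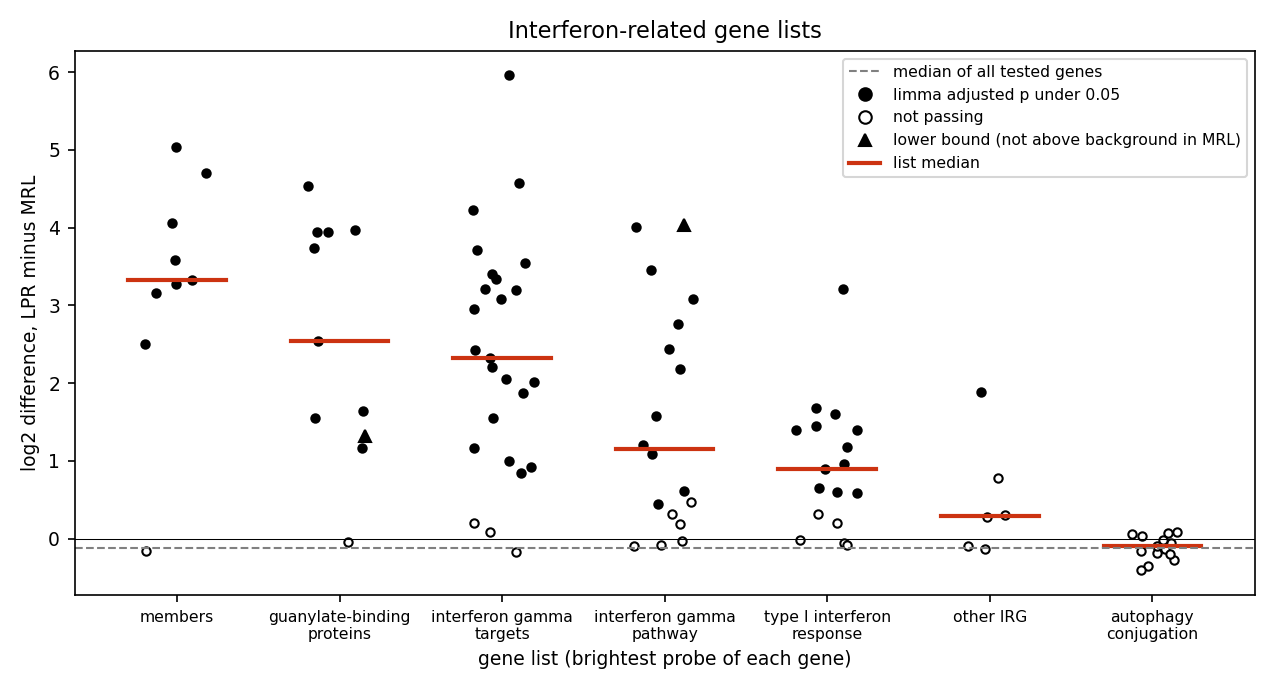
Log2 difference between LPR and MRL for the genes of 7 lists, with 1 point per gene (brightest probe), filled where limma called it, a triangle at the lower bound where no MRL mouse was above background, and a red bar at the list median. The dashed line is the median of all tested genes, at -0.12. The member median is 3.32. The guanylate-binding protein median is 2.55 with Gbp2b at its bound, as drawn, and 3.38 with the measured difference of Gbp2b.

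Most markers of immune cells were higher in LPR, where limma called 7.15% of all genes higher and 5.44% lower. Limma called 7 of 8 T cell genes higher, 3 of 4 natural killer cell genes, 3 of 6 B cell genes, 4 of 5 plasma cell genes and 8 of 9 macrophage genes, and 1 B cell gene, Ms4a1, was called lower, at -0.70 ± 0.18. The summed level of the marker lists, LPR over MRL, was 5.09-fold for 8 T cell genes, 6.22-fold for 5 natural killer cell genes, 4.40-fold for 6 B cell genes, 3.22-fold for 5 plasma cell genes and 2.46-fold for 9 macrophage genes. In each of these lists the lowest LPR sum lay above the highest MRL sum, for T cell genes at 14.6 to 17.0 against 2.91 to 3.39. A sum is weighted to the brightest probes, and that of the 9 IRG genes, with Gm4841 by its repeat probe, was 4.37-fold. That repeat probe read 5.05, 4.56 and 4.56 in MRL, where Igtp, the next brightest, read 0.82, 0.84 and 1.02. It makes up most of the MRL sum and did not change, so the 4.37-fold is not comparable with the marker sums. Medians of the log2 differences were 3.59 for T cell, 2.62 for natural killer cell, 0.92 for B cell and 3.31 for macrophage genes. For plasma cell genes the median was 4.35, or 2.95 with 1 gene that was above background in no MRL mouse at its bound. Among defining markers, Cd2 was higher by 4.64, Cd3d by 4.14 and Cd3g by 4.15 on the log2 scale, while Cd8a gave 0.02 and Itgam -0.09. Sums for proximal tubule, distal tubule, podocyte, endothelium and housekeeping genes were 0.776, 0.855, 1.20, 0.774 and 1.02 times those of MRL. The part of these cells in the levels of the IRG genes was not tested.

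By the root mean square difference of centred log2 values over the 6 arrays, the genes outside the family most like its mean profile were H2-Ea-ps at 0.08, Cd44 at 0.10, H2-Aa at 0.12 and Gbp2b at 0.13. Gbp2b was above background in no MRL mouse, so its likeness rests on MRL values under the floor. At its bound it was at least 2.49-fold higher in LPR. With Gm4841 left out of the profile, a choice made after seeing the data, the nearest were Slamf8, Cd74, Gpr171, Gbp2 and 4930417O13Rik, at 0.12 to 0.14, so the list of nearest genes rests on that 1 probe. H2-Ea-ps and H2-Aa are class II histocompatibility genes, and Cd74 encodes their invariant chain. Among the members themselves, Ifi47 lay nearest the family profile at 0.08 and Irgm2 next at 0.10.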

How the data were processed

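Total RNA of whole kidneys was labelled with Cy3 and hybridised to single-colour SurePrint G3 Mouse 8x60K arrays, 1 mouse per array and 6 arrays of 1 slide. The authors scanned the arrays with Agilent Feature Extraction 12.0.3.1 and deposited probe intensities with the background already subtracted, and scaled values normalised by a 75th percentile shift. Probe positions are those of the files (mm9). The labels name a column kit for RNA isolation and the study's methods name TRIzol.

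From the deposited intensity, log2 of the processed signal minus the array's 75th percentile was taken. Outlier spots were left out and spots of a probe averaged. Probes well above background on at least 3 of 6 arrays were tested with limma 3.58.1 in R 4.3.3 (lmFit and eBayes, Benjamini-Hochberg, 0.05), and the fit was tested on simulated data. The brightest tested probe stood for a gene, and members were given probe by probe. An exact permutation test of 3 against 3 cannot go below p = 0.1. The mice are separate animals. The members and lists were chosen with earlier results of these data known. Named were every member probe, Fas, every pathway gene tested, of each other list the 3 largest rises and the largest fall past the threshold (every gene in lists of 6 or fewer; marker lists are given by counts, sums and a few genes only), and the 5 genes most like the family profile; genes that did not pass were named in addition after their values were seen. An item that this rule would name is not reported here. Replicate numbers did not pair the samples. Alternatives were normexp correction, quantile and median scaling, the authors' scaled log2 values, filters, outlier spots kept, a limma trend, slide position and replicate blocks, the methods' t-test, probe averaging and leaving out each mouse.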

Additional observations from a re-analysis of the deposited data

How the results depend on the processing

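The members were chosen by this contrast on these same arrays, so the count that follows is a description and nothing is read from it. Over 19 alternatives, 169 of 171 values for the brightest probes of the members kept their direction and their side of the threshold. Both exceptions were Gm4841, where the mean of its probes gave 3.43 and leaving out MRL mouse 1 gave 0.010, against -0.15 (-0.25 to 0.010 over the 6 fits that leave out 1 mouse). Fas gave 0.71 with the mean of its probes, against -0.47. Normexp lowered the differences of dim member probes, to 3.098 for the dimmer Gm4841 probe and 0.85 for the dimmer Gm12250 probe. The dimmer Gm4951 probe no longer passed with the slide row as a block (2.83), by the methods' t-test (2.48) and without LPR mouse 1 (2.31) or LPR mouse 3 (2.25). The fourth Irgm1 probe passed without LPR mouse 2 (1.19). Across the array, 1458 probes were higher with the slide row as a block and 1736 by the methods' t-test, against 2606. Lower probes, 2462 at first, were 4498 under normexp, 1093 without a filter on dim probes, 463 and 973 with slide row and column as a block, 1386 by the methods' t-test, and 760 to 2269 when 1 mouse was left out. The replicate block gave 2199 probes higher and 1117 lower; correlations of deviations between same-numbered samples were 0.115, 0.02 and 0.01, so the block was not used, and it changed no call of a member's brightest probe. Autophagy conjugation genes lower were 1 under normexp, quantile scaling, a filter on all 6 arrays, the limma trend and without LPR mouse 2, against 0. The cause of these shifts was not tested. The number of arrays limits the precision, and a probe below background in MRL gives only a lower bound.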
